A study of Mus musculus with 2 samples.

Results

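The fat-rich spots of the WT section are 83 capture spots of a mouse melanoma section in which genes of fat cells were most abundant. Gene expression was mapped with Visium CytAssist, which joins probe pairs on RNA in a fixed section and captures them on a grid of barcoded spots, each a small region that can hold several cells of different types. The spots were chosen in the WT matrix among the 2775 spots with at least 2000 unique molecular identifiers (UMIs, counts of single molecules), as the top 3% by the summed CPM (UMIs of a gene scaled to a common total of all genes) of Adipoq, Cfd, Car3 and Retn. Tissue covered 3066 spots in WT and 5812 in both sections together. The series holds 1 section of a tumour from a KO mouse, Foxp3-Cre × CK2b-fl/fl, in which Cre driven by the Foxp3 gene acts in regulatory T cells, and 1 section of a tumour from a WT mouse, Csnk2b fl/fl without Cre. Both mice therefore carried the floxed allele of Csnk2b, which encodes the CK2 beta subunit. B16.F10, a mouse melanoma that makes pigment, formed the tumours in untreated mice aged 8 to 16 weeks. They were taken on day 15, and 10 µm sections of fixed, paraffin-embedded tissue were used. With 1 section per genotype and spots of 1 section sharing 1 animal, no test was made. Intervals on ratios are 95% exact binomial intervals that cover counting error only.

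White fat tissue consists of adipocytes, each holding a large droplet of stored fat, among blood capillaries, a basement membrane around every cell, fibroblast-like progenitors and resident macrophages. Adipocytes secrete hormones and enzymes such as adiponectin, adipsin and resistin, coat their droplets with perilipin and CIDE proteins, and take up fatty acids that lipoprotein lipase frees at the capillary wall. Fat is common under the skin, where B16 tumours are usually grown, and spots are too large to separate its adipocytes from its vessels and stroma.

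The 4 genes that chose the spots are described here without a test. Adipoq (adiponectin; chromosome 16, 23146536 to 23157968, GRCm38 RefSeq) had 196 UMIs over the fat-rich spots and was seen in 62.7% of them, against 13.4% of the neighbouring spots and 1.33% of distant spots. Neighbouring spots are the 216 other spots no more than 3 steps from a fat-rich spot on the hexagonal grid, and distant spots are the 2476 spots farther away. Cfd (adipsin; chromosome 10, 79890853 to 79892655) was seen in 84.3%, 12.04% and 1.13% of fat-rich, neighbouring and distant spots. Car3 (carbonic anhydrase 3; chromosome 3, 14863538 to 14872381) was seen in 98.8%, 34.3% and 1.90%, and Retn (resistin; chromosome 8, 3655770 to 3659818) in 37.3%, 1.39% and 0.162%. Car3 gave 2085 of the UMIs and thus most of the ranking. The summed level had a median of 1878.1 CPM and a highest value of 17092 CPM among the fat-rich spots. The cut fell in a continuous range of values: the lowest fat-rich spots had 373.55, 404.75 and 412.2 CPM, and the highest other spots had 360.17, 360.1 and 317.39 CPM. A fat-rich spot rested on 2 to 187 UMIs of these genes, with a median of 20, and 58 of the 83 had at least 10. Of the 2692 remaining spots, 2486 had no UMI of them.

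**Figure D1:**
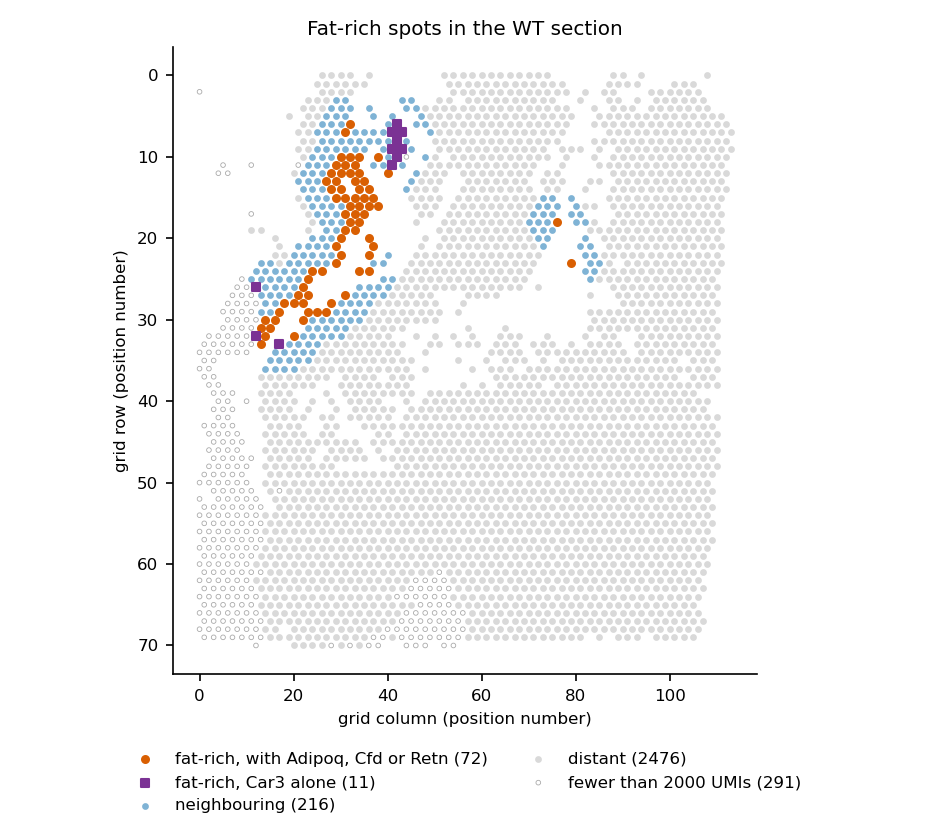
Position of every spot of the WT section on the capture grid (row and column numbers), coloured by group. Most fat-rich spots lie at the tissue margin in rows and columns of low number, and single spots at columns 76 and 79 lie apart. Of the 11 spots with Car3 as their sole rule gene, 8 lie in a separate patch of 9.

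The label was checked against adipocyte genes that did not choose the spots. At least 1 of them had a UMI in 81 of the 83 spots, but also in 172 of the 216 neighbouring and 1869 of the 2476 distant spots. With the gene Fabp4 left out, 71 of the 83 had a UMI of the others. Fabp4, the fatty acid carrier of adipocytes and capillaries, had 1208.5 CPM in fat-rich spots, 79.7 CPM in neighbouring spots and 43.7 CPM in distant spots. Plin1 (perilipin 1, the droplet coat protein; chromosome 7, 79721164 to 79732904) had 40 UMIs in the fat-rich spots and 10 in all remaining spots. In 72 fat-rich spots Adipoq, Cfd or Retn was seen beside Car3 or without it, and in the other 11 Car3 was the sole gene of the 4. Car3 is also abundant in skeletal muscle. Those 11 spots held 759 of the 765 UMIs of Acta1 (skeletal muscle actin) found in fat-rich spots and 1881 of the 1911 UMIs of a list of 15 muscle genes. Their muscle list summed to 22672 CPM, while the adipocyte list without Fabp4 summed to 84.4 CPM. The muscle list summed to 33.8 CPM in the other 72 spots, against 30.5 CPM in the remaining spots. Muscle genes were seen in 8 of these 11 Car3-only spots and had no UMI in the other 3. Results that rest on the Car3-only spots are marked. Over the 72 spots the adipocyte list summed to 1614.7 CPM, against 77.2 CPM in the remaining spots, with a median of 1424 CPM per spot and a range of 0 to 5806 CPM, and 71 of the 72 had a UMI of it.

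Depth differed between the groups and bears on every comparison. The fat-rich spots had a median of 10941 UMIs (range 2844 to 51831) and 4395 genes, the neighbouring spots 22364 UMIs, the distant spots 30871 UMIs and the remaining spots together 30060 UMIs. Of the fat-rich spots 97.6% lay at the rim, that is within 2 steps of an empty grid position or the edge of the grid, against 41.1% of the remaining spots. Values are therefore also given against the 600 remaining spots of matched depth, which had 5038 to 18092 UMIs with a median of 12416 (a match of the range, not of each spot's depth), and against the 72 neighbouring spots chosen by the same limits. Matching on depth, here and below, was added after the data were seen. It kept all 83 fat-rich spots, the Car3-only ones included. The 600 matched spots are not tumour of average makeup: their collagen genes summed to 73834 CPM and their melanocytic genes to 21203 CPM. Summed over spots, fewer cells of a type and less RNA per cell cannot be told apart.

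Of 8212 genes with a mean of at least 20 CPM over the compared groups, 1324 passed 2-fold upward in the fat-rich over the remaining spots (16.1%) and 1305 downward (15.9%). Since the spots were chosen by gene levels of the same section, this contrast is a description. The median over these genes was -0.21 on the log2 scale, and list medians against all remaining spots are to be read against it. No such median over all genes is given for matched depth. Against remaining spots of matched depth 475 of 8031 genes were higher (5.91%) and 310 lower (3.86%). With TMM factors, which shift the log2 ratios by 0.24, 1140 genes passed 2-fold upward and 2002 downward. Against the neighbouring spots 553 of 8083 genes were higher by that measure (6.84%) and 429 lower (5.31%), with a median of -0.05 over all of them; at matched depth 383 of 7879 were higher (4.86%) and 148 lower (1.88%). Leaving out the Car3-only spots gave 1323 higher and 1348 lower against the remaining spots.

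Beside the rule genes, genes of the fat droplet and of fat storage had the highest ratios, and muscle genes carried by the Car3-only spots, such as Acta1 at 130-fold, came next among the 15 highest. Plin1 was 361-fold higher (177 to 810) in fat-rich than in remaining spots. Cidec, which enlarges fat droplets, had 50.5 CPM in fat-rich spots, 0.919 CPM in neighbouring spots and 0.158 CPM in distant spots. Pck1, which makes the glycerol backbone for re-esterifying fatty acids, had 117 CPM in fat-rich spots, against 1.47 CPM in neighbouring spots and 0.353 CPM in distant spots. Fabp4 was 26.3-fold higher (24.6 to 28.1) than in all remaining spots and 25.2-fold higher (22.4 to 28.5) than in those of matched depth. Fabp4 was the one of these genes found in much of the section, with a UMI in 49.2% of distant spots.

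Of the 15 adipocyte identity genes 5 had enough counts to be compared, and all 5 were at least 2-fold higher in fat-rich spots. Sncg, a synuclein found in fat, had 74.2 CPM in fat-rich spots, 5.88 CPM in neighbouring spots and 2.12 CPM in distant spots. Cebpa, a transcription factor of adipocytes and of myeloid cells, was 5.20-fold higher than in the remaining spots but 1.26-fold (0.980 to 1.60) against matched depth. The other 10, Pparg and Lep among them, were below the count limit, with 9 and 6 UMIs of these 2 in fat-rich spots. For brown or beige fat, Ucp1, the heat-producing carrier of brown fat mitochondria, had 0 UMIs among the 969837 of the fat-rich spots.

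Among genes of fat storage and release 7 of 13 compared passed 2-fold upward and 1 downward. Lipe, the hormone-sensitive lipase, had 152 CPM in fat-rich spots, 15.4 CPM in neighbouring spots and 6.42 CPM in distant spots. Lpl, which frees fatty acids from circulating lipoproteins, had 378, 88.6 and 36.7 CPM in the same order and was 3.59-fold higher (3.16 to 4.07) than at matched depth. Cd36, a fatty acid transporter of adipocytes, capillaries and macrophages, had 614 CPM in fat-rich spots, 305 CPM in neighbouring spots and 85.1 CPM in distant spots, and the ratio was 1.52 (1.39 to 1.67) at matched depth. Mgll, a monoglyceride lipase, was the 1 lower gene, at 170 CPM in fat-rich spots, 222 CPM in neighbouring spots and 809 CPM in distant spots. Lipe and Mgll, both lipases, thus differed in opposite directions against all remaining spots. Against remaining spots of matched depth none of the 13 genes was at least 2-fold lower.

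Genes that make fat had mixed values. Scd1, the desaturase that makes monounsaturated fatty acids, had 443 CPM in fat-rich spots, 76.8 CPM in neighbouring spots and 106 CPM in distant spots, and its ratio was 7.02 (6.14 to 8.03) at matched depth. Fasn, fatty acid synthase, had 175 CPM in fat-rich spots and 274 CPM in the remaining spots. Acly, which supplies its acetyl-CoA, had 176 CPM in fat-rich spots and 443 CPM in the remaining spots. The synthesis list had a median log2 ratio of 0.10 over 10 genes. At matched depth 2 of 10 were at least 2-fold higher and none lower.

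Genes of blood vessel endothelium were high in the fat-rich spots against the remaining, the neighbouring and the matched spots. All 13 endothelial genes were compared, and 12 were at least 2-fold higher than in the remaining spots. The list summed to 3995 CPM in fat-rich spots, 869 CPM in neighbouring spots and 610 CPM in distant spots, and to 547 CPM in remaining spots of matched depth, against which all 13 were at least 2-fold higher. Genes of lymphatic vessels did not follow, with a list median of 1.82 over 2 genes against all remaining spots and -1.05 over 3 genes at matched depth. Per spot the endothelial list had a median of 3855 CPM (81.6 to 11693) in fat-rich spots, 332 CPM (0 to 7819) in neighbouring spots and 463 CPM (0 to 10197) in distant spots. The ranges overlapped, since single spots elsewhere in the section also held vessel genes. Plvap (plasmalemma vesicle protein of fenestrated and venous endothelium; chromosome 8, 71497753 to 71511806) had 1509.5 CPM in fat-rich spots, 192 CPM in neighbouring spots and 87.2 CPM in distant spots, a ratio of 16.1 (15.2 to 17.0) over the remaining spots and 14.1 (12.9 to 15.4) at matched depth. Cdh5, the junction cadherin of endothelium, was 6.10-fold higher than in remaining spots and 6.23-fold higher at matched depth. Kdr, the main receptor for vascular endothelial growth factor, had ratios of 9.01 and 9.47 in these comparisons. Eng, an endothelial co-receptor for transforming growth factor beta, was the member under 2-fold, at 541 CPM in fat-rich spots and 302 CPM in remaining spots.

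Most genes of fat capillaries, mural cells and basement membrane were also at least 2-fold higher than in the remaining spots. At matched depth 6 of 8 capillary genes were so, with a list median of 1.98. Aqp1, a water channel of capillary endothelium (chromosome 6, 55336299 to 55348555), had 518 CPM in fat-rich spots, 31.0 CPM in neighbouring spots and 33.4 CPM in distant spots. Gpihbp1, which anchors lipoprotein lipase to the capillary wall, had 87.6 CPM in fat-rich spots, 18.9 CPM in neighbouring spots and 28.1 CPM in distant spots. Rgs5, a marker of pericytes, had 227, 27.7 and 28.6 CPM in the same order and was 12.8-fold higher (10.3 to 16.1) at matched depth. For both Aqp1 and Rgs5 the neighbouring spots did not exceed the distant ones. All 9 compared pericyte and smooth muscle genes were at least 2-fold higher than in the remaining spots, with a median of 2.43 on the log2 scale. The median was 2.15 without the Car3-only spots, and 2.34 at matched depth with those spots kept. Des, the intermediate filament of smooth and skeletal muscle, is on that list and had 355 CPM in all fat-rich spots but 92.5 CPM without the Car3-only spots.

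Of 13 basement membrane and collagen VI genes 12 were at least 2-fold higher than in the remaining spots and 6 at matched depth. Col4a1, the alpha 1 chain of the basement membrane collagen IV (chromosome 8, 11198423 to 11312889), had 1478 CPM in fat-rich spots, 320 CPM in neighbouring spots and 166 CPM in distant spots, and was 6.47-fold higher (6.02 to 6.95) at matched depth. Sparcl1, a secreted matrix protein of vessels, had 212 CPM in fat-rich spots, 86.5 CPM in neighbouring spots and 137 CPM in distant spots. Lama4, a laminin chain of adipocyte and capillary basement membranes, was 2.05-fold higher than in all remaining spots but 1.17-fold (1.01 to 1.34) against matched depth.

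Further vessel genes ranked high. Selp (P-selectin, which lets leukocytes roll on activated endothelium) had 42.3 CPM in fat-rich spots and 1.65 CPM in neighbouring spots and was among the 15 highest of that contrast. Lrg1, a secreted glycoprotein of venous endothelium and inflamed tissue, was seen in 89.2% of fat-rich spots, 43.5% of neighbouring spots and 17.4% of distant spots. Vwf, von Willebrand factor of endothelium, which like Lrg1 was named after its values were seen, was seen in 54.2% of fat-rich spots, 12.5% of neighbouring spots and 10.5% of distant spots. Hp, the haemoglobin-binding haptoglobin, which adipocytes and neutrophils make, was seen in 83.1%, 39.8% and 10.1% of the same groups and was 10.2-fold higher (8.99 to 11.6) at matched depth. Each of these 4 genes was more widespread in fat-rich spots although those spots had fewer UMIs.

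Blood cell RNA was present too. The erythroid and platelet list summed to 6465 CPM in fat-rich spots, 2572 CPM in neighbouring spots and 566 CPM in distant spots. Hba-a2, an alpha globin chain, had 2031 CPM in fat-rich spots, 439 CPM in neighbouring spots and 79.4 CPM in distant spots, and was 8.17-fold higher (7.66 to 8.72) at matched depth. Pf4, platelet factor 4, which macrophages also express, had 1898 CPM in fat-rich spots and 2198 CPM in remaining spots of matched depth. Globin genes and Pf4 thus differed once depth was matched.

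**Figure D2:**
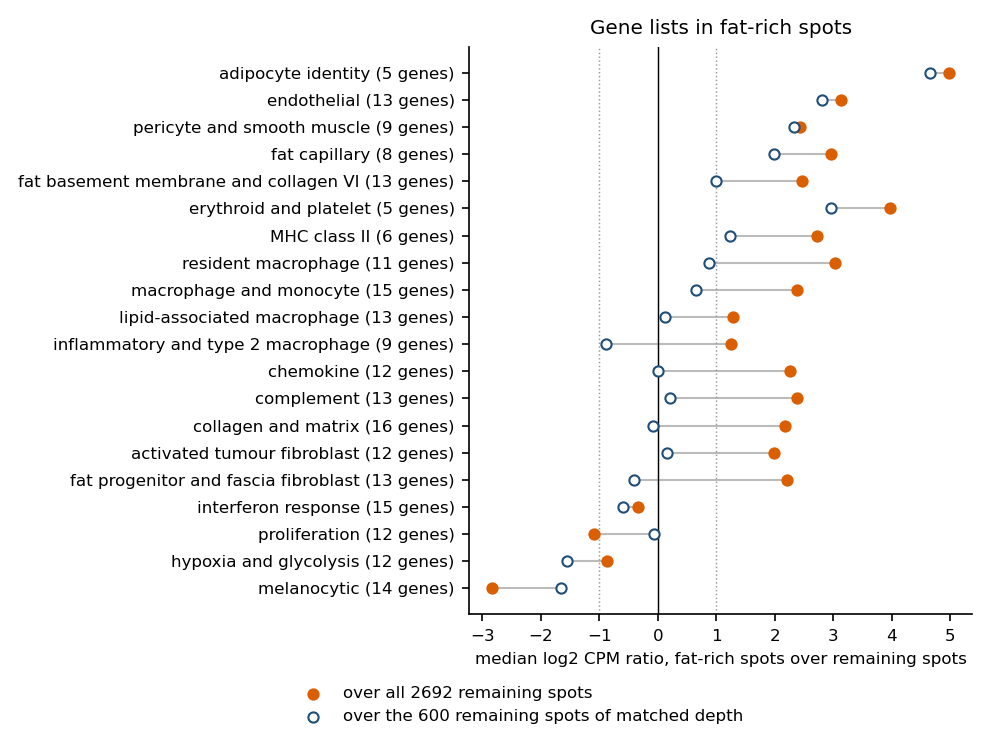
Median log2 ratio of each gene list in fat-rich spots over all 2692 remaining spots (filled) and over the 600 of matched depth (open), with the number of genes compared in all remaining spots; dotted lines mark 2-fold. The adipocyte, endothelial and pericyte lists change little, the fat capillary and basement membrane lists drop to 1.98 and 0.99, and macrophage, complement, chemokine and collagen lists move toward 0.

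Macrophage genes were high in the fat-rich spots against the section as a whole, and much less so against the spots of matched depth. All 15 compared macrophage and monocyte genes and all 11 resident macrophage genes were at least 2-fold higher than in the remaining spots, but 4 of 15 and 5 of 12 were at matched depth, where the list medians were 0.65 and 0.87. The resident macrophage list had a median of 9632 CPM per spot (1008 to 28754) in fat-rich spots, 4162 CPM (261 to 21152) in neighbouring spots and 660 CPM (0 to 23368) in distant spots. Selenop, the selenium transport protein that tissue macrophages secrete (chromosome 15, 3270767 to 3280510), had 4352 CPM in fat-rich spots, 1138 CPM in neighbouring spots and 491 CPM in distant spots. Its ratio over the remaining spots was 8.20 (7.94 to 8.46), and 2.63 (2.54 to 2.72) at matched depth. Cd163, the haemoglobin scavenger receptor of tissue macrophages (chromosome 6, 124304636 to 124330529), had 205 CPM in fat-rich spots, 39.5 CPM in neighbouring spots and 11.1 CPM in distant spots, with ratios of 15.9 and 1.78 in the same comparisons. Ccr2, the receptor that brings monocytes into tissue, had 302 CPM in fat-rich spots, 138 CPM in neighbouring spots and 21.9 CPM in distant spots, with ratios of 10.4 and 2.35. C1qa, a complement subunit made by macrophages, had 1483, 774 and 243 CPM in the same groups, with ratios of 5.36 and 1.37. Against neighbouring spots of matched depth Selenop was 1.52-fold higher (1.44 to 1.59), Ccr2 was at 0.963 (0.814 to 1.14) and C1qa at 0.873 (0.812 to 0.939).

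Macrophage genes tied to a given state went different ways. Among 13 lipid-associated macrophage genes 7 were at least 2-fold higher than in the remaining spots and 2 at matched depth. Trem2, the lipid receptor of macrophages around dying adipocytes, had 169 CPM in fat-rich spots, 96.6 CPM in neighbouring spots and 29.2 CPM in distant spots, with a ratio of 1.37 (1.15 to 1.62) at matched depth. Ccl8, a chemokine of tissue macrophages, had 859, 214 and 80.4 CPM in those groups and a ratio of 2.47 (2.28 to 2.68) at matched depth. Arg1, arginase 1, had 602 CPM in fat-rich spots, 960 CPM in neighbouring spots and 220 CPM in distant spots, and was at 0.343 (0.316 to 0.373) of the level in remaining spots of matched depth. Retnla, a resistin-like protein of type 2 macrophages picked after its values were seen, had 45.4 CPM in fat-rich spots and 201 CPM at matched depth. The list of inflammatory and type 2 genes had a median of 1.25 against all remaining spots and of -0.89 against matched depth, so its direction depended on which spots it was set against.

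Antigen presentation genes of class II were higher in both comparisons. All 6 compared of 10 were at least 2-fold higher than in the remaining spots, and all 6 were so at matched depth. Cd74, the class II invariant chain, had 1831 CPM in fat-rich spots, 953 CPM in neighbouring spots and 197 CPM in distant spots, and was 2.38-fold higher (2.26 to 2.52) at matched depth. H2-Eb1, a class II beta chain, had 371, 200 and 39.1 CPM in the same groups. Against neighbouring spots of matched depth none of 7 genes of the list was at least 2-fold higher, and the list median was 0.43. Class I genes had a median of 1.04 over 12 genes against all remaining spots and of 0.42 at matched depth.

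Chemokine and complement genes had 10 of 12 and 12 of 13 members at least 2-fold higher against all remaining spots, but list medians of 0.01 and 0.21 at matched depth. Cxcl14, a chemokine of fibroblasts and adipose tissue (chromosome 13, 56288643 to 56296811), had 272 CPM in fat-rich spots, 58.1 CPM in neighbouring spots and 9.28 CPM in distant spots. Its ratio was 22.1 (19.3 to 25.3) over the remaining spots and 5.75 (4.88 to 6.77) at matched depth. Cxcl10, which interferon induces and which draws T cells, was lower, at 57.7 CPM in fat-rich spots, 290 CPM in neighbouring spots and 341 CPM in distant spots. C3, the central complement protein, had 529, 204 and 49.6 CPM in these groups and a ratio of 1.53 (1.38 to 1.68) at matched depth. The interferon response list as a whole had a median of -0.34 against the remaining spots, close to that of all genes, and of -0.59 at matched depth.

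Lymphocyte genes were sparse. Of 16 T cell genes only Thy1 and Trbc2 had enough counts in this contrast. Thy1, which fibroblasts express as well, had 405 CPM in fat-rich spots, 286 CPM in neighbouring spots and 81.6 CPM in distant spots, with a ratio of 0.886 (0.796 to 0.984) at matched depth. Trbc2, a T cell receptor constant chain, had 36 UMIs, or 37.1 CPM, in fat-rich spots, against 15.4 CPM in neighbouring spots and 5.78 CPM in distant spots. Cd8a had 6 UMIs and Foxp3 had 0 UMIs in all fat-rich spots, too few to compare. Csf3r, a receptor of neutrophils, had 42 UMIs and 43.3 CPM, against 16.4 CPM in neighbouring spots and 3.39 CPM in distant spots.

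Immunoglobulin genes were among the highest against the neighbouring spots, and single spots held a large share of their UMIs. Ighm, the heavy chain of IgM (chromosome 12, 113418826 to 113422730), had 283 CPM in fat-rich spots, 13.96 CPM in neighbouring spots and 10.1 CPM in distant spots. Igkc, the kappa light chain constant region (chromosome 6, 70726435 to 70726754), had 291, 8.08 and 43.9 CPM in the same groups. One spot held 93 of the 274 Ighm UMIs and one spot held 125 of the 282 Igkc UMIs of the fat-rich group. Igkc was seen in 27.7% of fat-rich spots, 12.04% of neighbouring spots and 13.8% of distant spots, and Ighm in 51.8%, 24.5% and 11.8%. Ms4a1, a B cell surface gene, had 3 UMIs and Igha, the heavy chain of IgA, had 0 UMIs in fat-rich spots. At matched depth Ighm was 3.82-fold higher (3.29 to 4.43) and Igkc 1.46-fold higher (1.28 to 1.66) than in the remaining spots.

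Collagen genes were higher in the fat-rich than in the remaining spots, and their sum was close to that in the remaining spots of matched depth. The 16 genes of the collagen and matrix list summed to 68370 CPM in fat-rich spots, 55370 CPM in neighbouring spots and 13109 CPM in distant spots. Against the remaining spots 14 passed 2-fold upward and 1 downward, and at matched depth 1 passed upward and none downward, with a list median of -0.09. Col1a1, a chain of the fibrous collagen I, had 20048 CPM in fat-rich spots, 18000 CPM in neighbouring spots and 3744 CPM in distant spots, and was at 0.924 (0.911 to 0.938) of the level at matched depth. Col6a2, a chain of the collagen VI that surrounds adipocytes, had 1460, 817 and 173 CPM in these groups and a ratio of 1.99 (1.88 to 2.11) at matched depth. Tnc, tenascin C of activated fibroblasts, was lower in fat-rich than in neighbouring spots, at 378 CPM, 857 CPM and, in distant spots, 146 CPM. Clec3b, a marker of fascia fibroblasts and fat progenitors, had 412 CPM in fat-rich spots and 200 CPM in neighbouring spots, but 536 CPM in remaining spots of matched depth. The fat progenitor list had a median of 2.20 against all remaining spots and of -0.40 at matched depth, where none of 15 genes passed 2-fold upward and 4 did so downward. That list summed to 3541 CPM in fat-rich spots, against 4810 CPM in remaining spots of matched depth.

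Tumour genes were low in the fat-rich spots. All 14 compared melanocytic genes were at least 2-fold lower against the remaining spots, against the neighbouring spots and against remaining spots of matched depth, with list medians of -2.83, -1.92 and -1.66. Against neighbouring spots of matched depth 1 of 14 was, with a median of -0.62. The list summed to 6827 CPM in fat-rich spots, 26676 CPM in neighbouring spots and 49225 CPM in distant spots. Per spot it had a median of 2509 CPM in fat-rich spots, 10611 CPM in neighbouring spots and 50931 CPM in distant spots, and single fat-rich spots reached 65050 CPM. Dct, dopachrome tautomerase of the pigment pathway, had 3538 CPM in fat-rich spots, 13079 CPM in neighbouring spots and 23645 CPM in distant spots. Tyr, tyrosinase (chromosome 7, 87424771 to 87493512), had 139 CPM in fat-rich spots, 679 CPM in neighbouring spots and 1699.5 CPM in distant spots. Of 12 proliferation genes 8 were at least 2-fold lower against the remaining spots, and none was at matched depth.

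Genes of hypoxia and glycolysis were mostly lower in fat-rich spots. Against the remaining spots 4 of 12 were at least 2-fold lower and 1 higher, with a list median of -0.86, which was 0.09 where Adipoq alone ranked the spots. At matched depth 10 of 13 were at least 2-fold lower and none higher. Car9, a carbonic anhydrase of hypoxic cells, had 65.0 CPM in fat-rich spots, 268 CPM in neighbouring spots and 132 CPM in distant spots, and was at 0.300 (0.229 to 0.386) of the level in remaining spots of matched depth. Pgk1, a glycolytic enzyme, had 285 CPM in fat-rich spots, 976 CPM in neighbouring spots and 1089 CPM in distant spots. Adm, adrenomedullin, which is also a vessel peptide, was the exception against all remaining spots at 2.92-fold (2.23 to 3.76), and was at 0.717 (0.543 to 0.931) at matched depth. Among the lowest genes at matched depth were Serpinb2, a protease inhibitor, at 14.4 CPM in fat-rich spots and 305 CPM in the matched spots, and Slc16a3, the lactate exporter, at 45.4 CPM in fat-rich spots and 277 CPM in the matched spots. These 2 were named after their values were seen.

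The tissue next to fat was then compared with the rest of the section, in spots that did not themselves pass the cut. Of 7970 genes 672 passed 2-fold upward in neighbouring over distant spots (8.43%) and 129 downward (1.62%), with a median of -0.17. All 14 compared macrophage and monocyte genes, all 11 resident macrophage genes, all 5 erythroid and platelet genes and all 12 activated fibroblast genes were among the higher ones. So were 14 of 16 collagen and matrix genes, 5 of 6 class II genes, 11 of 13 complement genes and 9 of 11 chemokine genes. Endothelial genes were less so, with 3 of 7. Acta1 led the ranking at 56.2 CPM in neighbouring spots and 2.73 CPM in distant spots, and 1 neighbouring spot held 77 of its 306 UMIs there. This rests on the Car3-only spots: with neighbours drawn without them, no gene of the muscle list had enough counts to be compared.

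Macrophage and stroma genes next to fat stayed higher among rim spots within the same limits of depth. There, 118 neighbouring and 655 distant spots, all within 2 steps of the margin, were compared, with medians of 21393 and 25163 UMIs, and 599 of 7967 genes were at least 2-fold higher (7.52%) and 75 lower (0.941%). The resident macrophage list had a median of 1.70, against 1.93 over all neighbouring and distant spots. The class II list had 1.79, against 2.16, and the collagen list 1.52, against 2.12. The activated fibroblast list had 1.30, against 2.26, with 10 of 12 genes past 2-fold. Ccr2 had 158 CPM in neighbouring rim spots and 36.1 CPM in distant rim spots, a ratio of 4.37 (3.86 to 4.96). Hp had 66.8 and 12.9 CPM and C3 had 268 and 61.9 CPM in the same groups. Kcnj13, a potassium channel of pigmented cells, was the lowest gene in both forms of the comparison. It had 24.4 CPM in all neighbouring and 165 CPM in all distant spots, and 38.1 and 165.65 CPM in these rim spots. Melanocytic genes were also lower, with 5 of 14 past 2-fold and a list median of -0.903 in the rim spots. Over all neighbouring and distant spots 6 of 14 passed 2-fold and the list median was -0.91.

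Levels changed over different distances from the fat-rich spots. With distances of 0, 1, 2, 3, 4 to 6, 7 to 12 and over 12 steps, the adipocyte list summed to 1545, 292, 138, 83.0, 79.3, 61.7 and 74.2 CPM. It was thus near its level elsewhere at 3 steps. Most of the list's level in the fat-rich spots was Fabp4. The endothelial list summed to 3995, 1312, 820, 672, 433, 442 and 663 CPM and was lowest at 4 to 12 steps. The class II list summed to 3123, 2930, 1808, 900, 762, 285 and 355 CPM, with nearly the same level at 1 step as in the fat-rich spots. The resident macrophage list summed to 10274, 7059, 4266, 2695, 3072, 2029 and 960 CPM and was higher at 7 to 12 steps than beyond. Activated fibroblast genes were highest outside the fat, at 4374, 5710, 5387, 3816, 3176, 1365 and 869 CPM. Hypoxia genes were highest at 3 steps, at 2073, 3433, 4767, 6350, 6011, 5163 and 4401 CPM. Melanocytic genes increased throughout apart from a level stretch near 3 to 6 steps, with 6827, 12362, 24483, 35974, 35450, 47159 and 50854 CPM.

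Among rim spots alone the class II list summed to 3027, 2742, 1533, 829, 807, 312 and 384 CPM over the same distances, and the resident macrophage list to 10357, 7211, 4754, 2688, 2631, 1762 and 1088 CPM. Median depth also changed with distance, at 10941, 17260, 23032, 27586, 17534, 20957 and 33800 UMIs over all spots. Its part in these gradients was not tested.

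**Figure D3:**
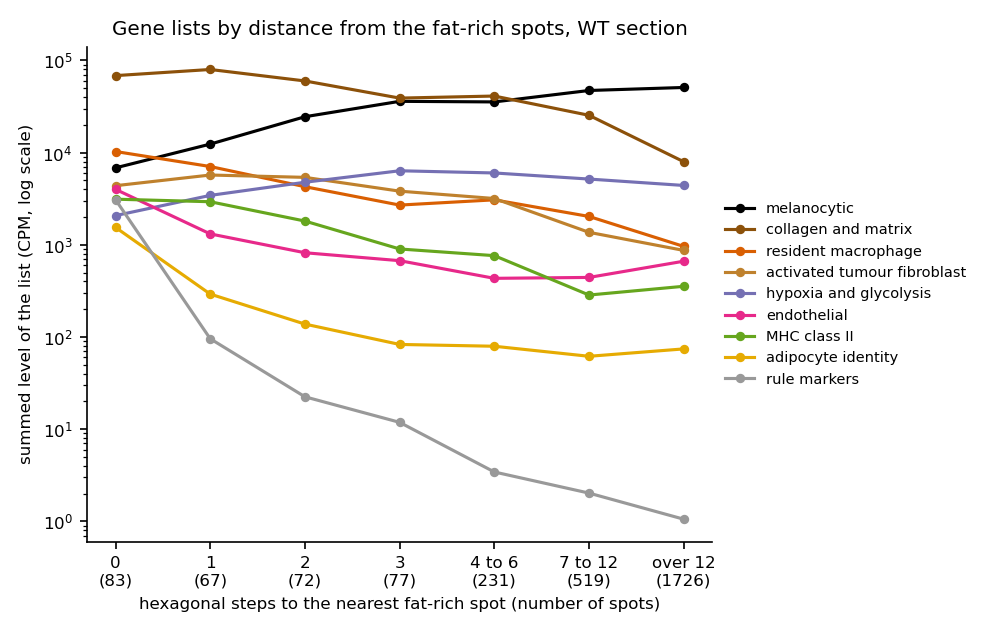
Summed level of gene lists (CPM, log scale) by distance to the nearest fat-rich spot in hexagonal steps, with the number of spots below each distance. Rule and adipocyte genes drop within 3 steps, class II genes keep their level for 1 step, and fibroblast and hypoxia genes peak outside the fat-rich spots.

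The fat-rich spots fell into 13 patches of touching spots, of which 3 had at least 5 spots and held 69 spots, and 7 were single spots. The adipocyte list was highest in the 38 spots of patch 1, at 2036 CPM. It summed to 1388.5 CPM in the 22 spots of patch 2 and 870 CPM in the 9 spots of patch 3. The 14 spots of small patches had 841 CPM. Over all fat-rich spots Fabp4, also a capillary gene, made up 1208.5 of the list's 1545 CPM. In the Car3-only spots, 8 of them in patch 3, the list fell from 796 to 84.4 CPM without Fabp4. Patch 3 held the muscle genes, with 27360 CPM of muscle genes, no Adipoq or Plin1 UMI, and 8 of its 9 spots with Car3 as the sole rule gene. Its endothelial list summed to 4178 CPM, between the 5427 CPM of patch 1 and the 3093 CPM of patch 2. Vessel genes were therefore high in both the fat and the muscle patches.

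Patches 1 and 2 both had little melanocytic RNA, 2288 and 1994 CPM, while patch 3 and the small patches had 17176 and 26657 CPM. They differed in blood and immunoglobulin genes. Hbb-bs, a beta globin chain, had 1182 CPM in patch 1 and 4484 CPM in patch 2. Igkc had 3 UMIs in patch 1, 213 UMIs in patch 2, none in patch 3 and 66 UMIs in the small patches. Ighm had 22 UMIs in patch 1, 194 UMIs in patch 2, 3 UMIs in patch 3 and 55 UMIs in the small patches. Arg1 had 48.8 CPM in patch 1, 1257 CPM in patch 2, 87.0 CPM in patch 3 and 841 CPM in the small patches. Most Igkc, Ighm and Arg1 UMIs of the fat-rich group therefore lay in patch 2 and the small patches. Resident macrophage genes were alike in the large patches, at 10200 and 11754 CPM, as were class II genes at 3713 and 3316 CPM.

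**Figure D4:**
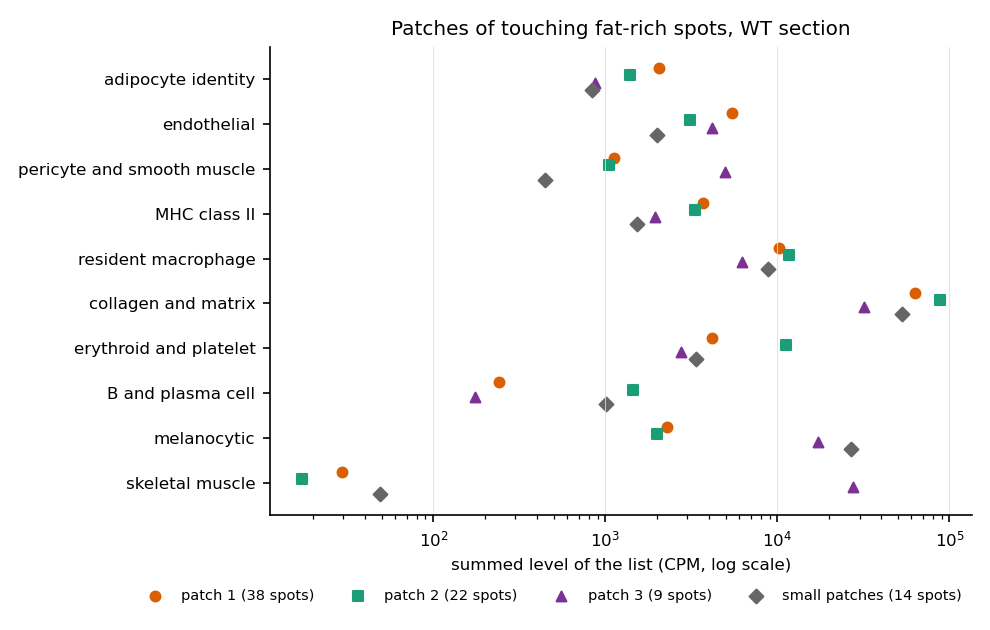
Summed level of gene lists (CPM, log scale) in the 3 larger patches of touching fat-rich spots and in the small patches together. Patch 3 stands apart by skeletal muscle genes at 27360 CPM, and patch 2 by erythroid and immunoglobulin genes.

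The same rule picked 76 of 2524 spots in the KO section, and muscle genes had a higher summed level in these than in the WT spots. Values are set side by side without a test, since there is 1 section per genotype. Car3 was the sole rule gene in 38 of the 76 KO spots, against 11 of 83 in WT. The muscle list summed to 26629 CPM in the KO spots and 1970 CPM in the WT spots. Adipoq had 26 UMIs and 34.9 CPM in the KO spots, and 196 UMIs and 202 CPM in the WT spots. Cfd had 353 CPM in KO and 676 CPM in WT, Car3 2024 CPM in KO and 2150 CPM in WT, and Fabp4 576 CPM in KO and 1208.5 CPM in WT. The adipocyte list, most of it Fabp4 in both, summed to 736 CPM in KO and 1545 CPM in WT. A similar Car3 level thus came with fewer fat genes and more muscle genes in KO.

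Other lists differed between the chosen spots of the 2 sections as well. Collagen genes summed to 18437 CPM in KO and 68370 CPM in WT, and endothelial genes to 1347 CPM in KO and 3995 CPM in WT. Class II genes summed to 9648 CPM in KO and 3123 CPM in WT, T cell genes to 1544 CPM in KO and 536 CPM in WT, and erythroid genes to 34606 CPM in KO and 6465 CPM in WT. Most of the WT sum of T cell genes was Thy1, which fibroblasts express as well. Of that list 12 genes had enough counts to be compared in KO and 2 in WT. In the remaining spots collagen genes summed to 3090 CPM in KO and 15736 CPM in WT, and erythroid genes to 2014 and 691 CPM. These 2 lists thus differed between the sections outside the chosen spots too. There, endothelial genes summed to 491 CPM in KO and 626 CPM in WT, class II genes to 450 and 450 CPM, and T cell genes to 111 and 129 CPM. In the chosen spots Cxcl10 had 434 CPM in KO and 57.7 CPM in WT, while Arg1 had 80.5 CPM in KO and 602 CPM in WT. Csnk2b, the floxed gene, had 230 CPM in KO and 209 CPM in WT, which checks nothing, since Cre acts in Foxp3-expressing cells and Foxp3 had 2 UMIs in KO and 0 UMIs in WT. With fat and muscle mixed differently in the 2 sets, genotype and tissue makeup cannot be told apart.

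**Figure D5:**
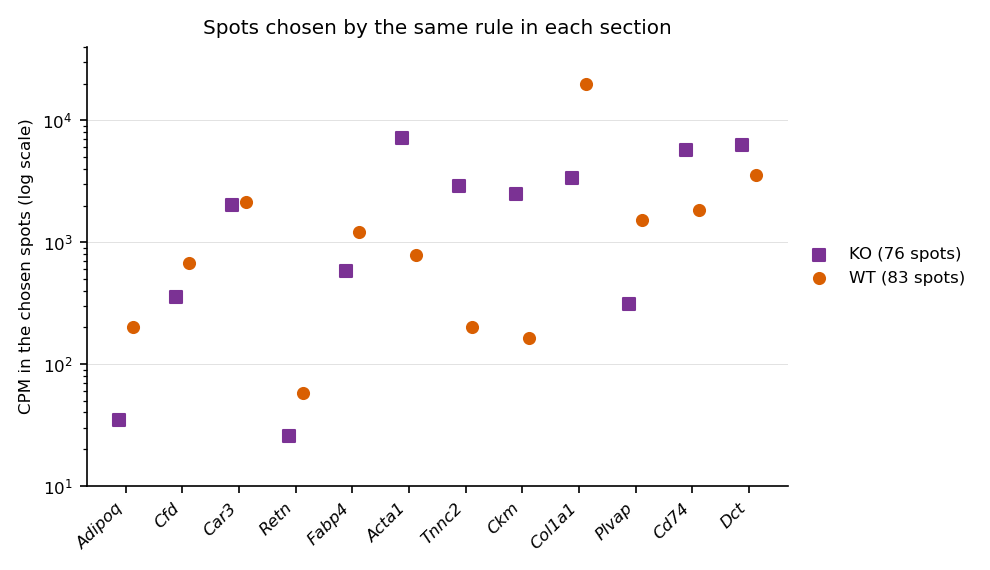
CPM (log scale) of 12 genes in the spots chosen by the same rule in the KO section (76 spots) and in the WT section (83 spots); 1 section per genotype, no error bars. Car3 is alike, Adipoq, Fabp4, Col1a1 and Plvap are lower in KO, and the muscle genes Acta1, Tnnc2 and Ckm are higher in KO.

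The deposited spatial statistic differed among the fat genes. In the authors' deposited table, Moran's I, a score near 1 for a clustered gene and near 0 for a scattered one, was 0.0701 for Adipoq in KO and 0.353 in WT. The authors' deposited table gave Pck1 0.0321 in KO and 0.351 in WT, and Plin1 0.0563 in KO and 0.193 in WT. For Car3 the authors' deposited table gave 0.600 in KO and 0.528 in WT, and for Cfd 0.397 in KO and 0.469 in WT. The authors' deposited table gave Retn 0.176 in KO and 0.224 in WT, and Cidec 0.252 in KO and 0.201 in WT. Adipoq, Plin1 and Pck1 had few UMIs in KO, and their part in its lower scores was not tested.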

How the data were processed

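Probe-based Visium CytAssist UMI counts per gene and spot were deposited by the authors for 1 section per genotype, with Space Ranger 2.1.0 named per the file headers; mm10 and featureCounts are named, with no role, per the submitters' processing notes. Moran's I is a score per gene in the authors' deposited table, with parameters not given in the sources used here. The matrices held 19465 genes, and the KO and WT sections 94422680 and 88735936 UMIs. Xist and Lilrb4a were not analysed here.

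From the deposited counts, spots with at least 2000 UMIs were kept (222 KO and 291 WT spots fell below), members were chosen, counts were summed per group, and CPM of the sums were compared for genes with a mean of at least 20 CPM over both groups. Ratios carry 95% exact conditional binomial intervals. List medians add 0.5 counts. A 2-fold difference is called with no test. Matched spots had UMIs between the 10th and 90th percentile of the members' UMIs (5021.2 to 18107), and for neighbouring against distant spots the same percentiles of the neighbouring spots, on the rim. No cell types were assigned and no doublet caller was run. The sections share 2138 barcodes, which are positions of the same grid. Positions of 564 genes came from RefSeq. Scripts were tested on simulated data and ran in Python 3.11.15 with numpy 2.4.6, scipy 1.17.1, pandas 2.3.3 and matplotlib 3.10.9, and TMM factors came from edgeR 4.0.16 in R 4.3.3.

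The members, the 41 gene lists and the comparisons were chosen with earlier results of these data known. Genes were eligible to be named if they ranked among the 15 highest or 10 lowest ratios of a comparison, were 1 of the 4 rule genes, or stood in a list among its 3 most abundant members or at either end of its ratios. Aqp1, Car9, Foxp3, Gpihbp1, Igha, Kdr, Lama4, Lep, Lipe, Lrg1, Ms4a1, Pparg, Retnla, Rgs5, Slc16a3, Sncg, Trem2, Ucp1 and Vwf fall outside that rule and were chosen with their values known.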

Additional observations from a re-analysis of the deposited data

Results flagged for a closer look

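The median log2 ratio of 2 lists, chosen spots over the remaining spots of the same section, had opposite signs in the 2 sections. The fat and sugar synthesis list was at -0.45 in KO and 0.10 in WT. The interferon response list was at 1.66 in KO, where 11 of 18 compared genes were at least 2-fold higher, and at -0.34 in WT, where 3 of 15 were. Over all compared genes the share at least 2-fold higher was 16.1% in WT. That share is not given for KO, so the KO count has no baseline and is not read as particular to this list. For either list the difference was not tested, since each genotype has 1 section.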

How the results depend on the processing

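The 48 list medians of at least 3 genes and at least 2-fold were recomputed under 23 settings, 8 of them added after seeing the data: 1029 of 1036 values kept their direction, and 93 of 126 gene counts stayed within 1.5 times. Counts are given as fat-rich over remaining, fat-rich over neighbouring and neighbouring over distant spots. A filter at 5 CPM gave 2250, 1092 and 1318 higher genes, with 789 lower in the second comparison and 226 in the third. With no filter beyond 1 UMI 5056, 2788 and 4171 were higher and 2035, 1014 and 566 lower. A filter at 100 CPM gave 391, 143 and 187 higher and 406, 106 and 46 lower. At matched depth 475 were higher in the first comparison and 310, 148 and 75 lower. Ranking by Adipoq alone gave 828, 282 and 6 lower genes. TMM factors gave 2002 lower genes in the first comparison, and equal weight per spot 245 in the second. Neighbours within 2 steps gave 345 higher and 229 lower in the second and 391 lower in the third. In the third comparison 68 were lower with neighbours at 2 to 3 steps, 26 with the top 5% of spots, 55 on the rim and 53 without Car3 in the ranking. Against remaining spots of matched depth the medians of the fat progenitor, collagen, inflammatory and type 2, and stress lists turned to -0.399, -0.086, -0.890 and -0.115, and equal weight per spot turned the inflammatory and type 2 list to -0.14. The muscle list against neighbouring spots turned to -3.55 with Adipoq alone and -3.42 without Car3, with 1 gene compared each. Of medians outside those 48, the hypoxia list against the remaining spots turned from -0.86 to 0.09 with Adipoq alone, and at matched depth the lymphatic list turned from 1.82 to -1.05 and the type 2 lymphoid list from 1.02 to -0.70, over 2 or 3 genes. The thermogenic median rests on 1 gene and turned from -2.50 to 2.01 without the largest patch. Against neighbouring spots several list medians under 2-fold also changed sign at matched depth, chemokine from 0.47 to -0.425 and complement from 0.93 to -0.23 among them. Except for the filters, which change how many genes are compared, the cause was not tested. No paired analysis was possible because each genotype has 1 section. Fat-rich spots hold 969837 UMIs in all, so genes with few UMIs, among them most T and B cell genes, could not be compared.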
